A study of Caenorhabditis elegans with 2 samples.

Results

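Peaks of tagged SOX-4 that lay on an autosome at the promoter of a single protein-coding gene are described here. A peak belonged to the set when it was in the authors' optimal list on ce11, lay on chromosomes I to V, and had its summit from 1000 bp upstream to 200 bp downstream of the 5′ end of exactly 1 coding gene. Of 1497 optimal peaks, 1182 were autosomal, and 404 of those met the rule. Another 302 autosomal peaks lay at 2 or more coding promoters and 476 at none. The 404 peaks, called members below, belonged to 392 genes, 12 of which had 2 members each. They were set against 5120 autosomal regions of the pooled list that met the same promoter rule and were not optimal, called the comparison set. Members were 404 of 5524 such regions (7.31%), and 392 of the 4613 genes with such a region had a member (8.5%). The pooled list includes background, and the comparison set was mostly weak. Its median pooled signal was 18.4, against 81.8 in members, and 43.3% of its regions were in both replicates' lists.

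All samples were of 1 group. They were whole hermaphrodite larvae of the first stage (L1) of Caenorhabditis elegans strain OP517, genotype unc-119(tm4063) III with the transgene wgIs517, which stably expresses SOX-4 with GFP and FLAG at its C terminus. Larvae had been starved after bleaching and were taken 6 hours after synchronization; their age is labelled unknown. Sonicated chromatin was precipitated with an antibody to GFP in 2 biological replicates. Whole larvae mix all cell types, and larvae lacking the tagged protein were not analysed here. Read depth is unknown, so intervals reflect only how many regions or genes were counted. Regions are not replicates, and p-values across them describe these lists, not variation between animals.

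SOX-4 belongs to the Sox family, transcription factors whose HMG-box domain binds short AT-rich sequences with a core such as ACAAT through the minor groove and bends the DNA. In nematodes many coding genes lie close together. Some are joined in operons, whose downstream transcripts receive an SL2 leader RNA by trans-splicing. For many genes the annotated 5′ end is a trans-splice site, so that transcription starts at some distance upstream of it.

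The 4 strongest members on chromosomes II to V are shown first because 3 of them share a short pattern, GCGNGTTT, printed in capitals. Each sequence runs from 50 bp before to 50 bp after the summit, on the strand of the gene, from the RefSeq copy of WBcel235, the assembly that ce11 names. They lie at chrIII:3867523-3867623 (plus strand), chrII:5844777-5844877 (plus), chrV:14685700-14685800 (minus) and chrIII:7854626-7854726 (plus), in the order printed.
rpl-3: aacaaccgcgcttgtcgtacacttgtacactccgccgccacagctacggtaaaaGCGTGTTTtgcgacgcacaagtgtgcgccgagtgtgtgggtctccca
H41C03.3: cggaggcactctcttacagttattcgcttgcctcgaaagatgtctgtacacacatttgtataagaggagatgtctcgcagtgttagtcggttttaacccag
C47E8.4: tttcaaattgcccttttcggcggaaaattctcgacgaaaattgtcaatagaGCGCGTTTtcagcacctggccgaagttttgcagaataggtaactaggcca
rpl-35: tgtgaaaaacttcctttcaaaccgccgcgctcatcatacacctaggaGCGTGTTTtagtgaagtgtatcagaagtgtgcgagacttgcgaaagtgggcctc
The pooled signal, the authors' value per region, was 466.2 at rpl-3 and 347.0 at rpl-35, which encode proteins of the large ribosomal subunit. It was 370.3 at H41C03.3, whose sequence holds no such pattern, and 361.5 at C47E8.4.

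The strongest member on II to V with each of 3 fixed motifs is shown next, with that motif in capitals on whichever strand it matched. WWCAAWG, where W is A or T, is a Sox consensus. GAGAGA is a GA repeat, and CACGTG is the E-box of bHLH factors. The windows are chrII:14795068-14795168 (plus), chrIII:482916-483016 (plus) and chrV:9344254-9344354 (minus).
eif-3.B, WWCAAWG: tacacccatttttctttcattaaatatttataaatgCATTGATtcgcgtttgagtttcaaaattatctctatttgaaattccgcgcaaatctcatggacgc
F10C5.3, GAGAGA: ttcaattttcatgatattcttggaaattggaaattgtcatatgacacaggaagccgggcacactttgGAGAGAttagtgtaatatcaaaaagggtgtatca
tos-1, CACGTG: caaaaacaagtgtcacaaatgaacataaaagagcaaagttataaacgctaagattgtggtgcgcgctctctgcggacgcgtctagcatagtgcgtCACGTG
Their signals were 280.2 at eif-3.B, a subunit of translation initiation factor 3, 233.0 at F10C5.3 and 294.1 at tos-1. The eif-3.B summit was also the most AT-rich of the 7 printed, with 31.7% GC.

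Member summits lay closer to the gene than comparison summits did. The median summit was 261.5 bp upstream of the 5′ end among members and 376 bp upstream in the comparison set. Of the members, 88 (21.8%) had their summit 100 to 200 bp upstream and 79 (19.6%) 200 to 300 bp upstream. The comparison set spread evenly, with 6.82% to 9.82% of its regions in each 100 bp bin. Logistic regression was run for 20 features of the regions, 9 of position and surroundings and 11 motifs. At an adjusted p under 0.05, 10 were more frequent in members (50%) and 8 less frequent (40%) (two-sided likelihood ratio test, Benjamini-Hochberg over all 20). These are not separate findings. The position intervals are mutually exclusive, as are the summit locations, so excess in some goes with depletion in others, and CANNTG includes CACGTG.

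The interval 1 to 200 bp upstream held 138 members (34.2%) and 19.0% of the comparison set, an odds ratio of 2.21 (95% interval 1.78 to 2.74, adjusted p = 2.26e-11, n = 5524). The interval from there to 500 bp upstream held 167 members (41.3%) and 27.9% of the comparison set, an odds ratio of 1.82 (1.48 to 2.24, adjusted p = 5.27e-08, n = 5524). That second difference was not seen when the promoter window was cut to 500 bp upstream and 100 bp downstream, where the odds ratio was 0.996. Both outer intervals were depleted. Beyond 500 bp upstream there were 83 members (20.5%) against 38.4% (odds ratio 0.415, 0.324 to 0.532, adjusted p = 6.34e-13, n = 5524). Downstream of the 5′ end there were 16 members (3.96%) against 14.7% (odds ratio 0.239, 0.144 to 0.397, adjusted p = 2.26e-11, n = 5524). Signal among members varied little with position, with medians of 76.6 downstream, 80.1 at 1 to 200 bp, 86.3 between 200 and 500 bp and 77.3 beyond 500 bp upstream.

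**Figure D1:**
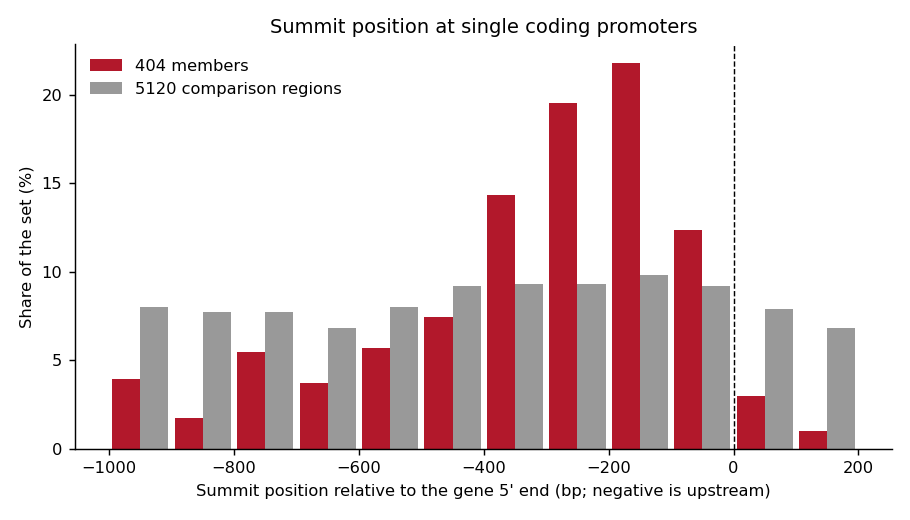
Share of each set (%) by summit position relative to the gene 5′ end in 100 bp bins, for 404 members (red) and 5120 comparison regions (grey). Members peak at 21.8% in the bin 100 to 200 bp upstream, while no bin holds more than 9.82% of the comparison set.

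Most members lay outside coding genes. The summit was outside every coding gene at 348 members (86.1%) and at 64.6% of the comparison set, an odds ratio of 3.40 (2.55 to 4.54, adjusted p = 7.3e-20, n = 5524). It lay inside a coding gene other than the one at whose promoter it was counted at 40 members (9.90%) and at 20.7% of the comparison set (odds ratio 0.420, 0.301 to 0.587, adjusted p = 3.54e-08, n = 5524). Of those 40 members, 30 were in an intron, 6 in a 3′ UTR and 4 in a 5′ UTR. C47E8.4 was one of the 30, with its summit in an intron of hsp-90, the cytosolic Hsp90 chaperone gene. The peak at the replication factor gene mcm-10 was another (signal 185.4, in an intron of teg-1). The 16 members inside their own gene were the same 16 whose summit was downstream of the 5′ end. Of these, 11 were in the 5′ UTR, 4 in a coding exon and 1 in an intron. The strongest of the 16 was at ints-4, an Integrator complex gene, with 244.8 and its summit 33 bp into the 5′ UTR.

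A coding gene on the same strand ended within 1000 bp upstream of the gene at 164 members (40.6%) and at 33.1% of the comparison set (odds ratio 1.38, 1.12 to 1.70, adjusted p = 0.00349, n = 5524). This difference missed the threshold with the shorter promoter window (odds ratio 1.17).

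**Figure D2:**
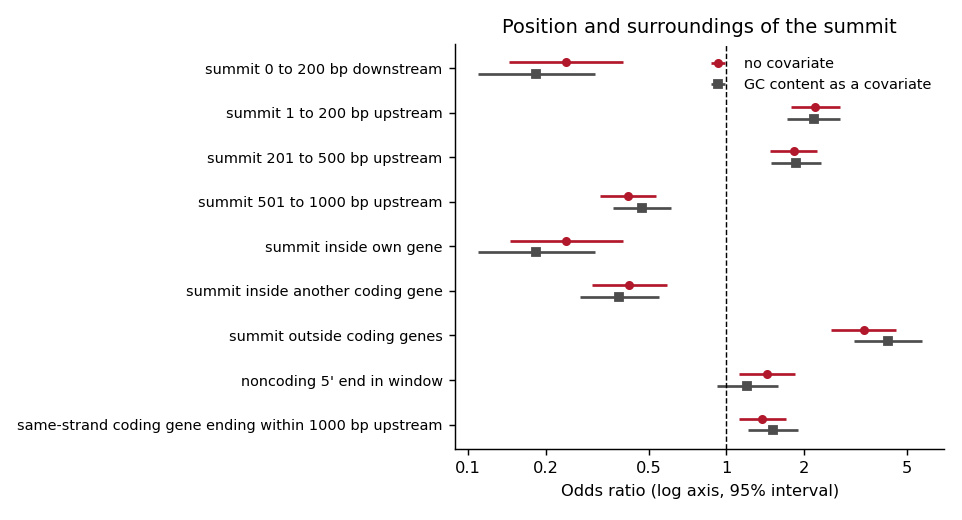
Odds ratio (log axis, with 95% interval) of each position or surrounding feature in the 404 members against the 5120 comparison regions, without a covariate (red circles) and with GC content as a covariate (grey squares). Summits outside coding genes stand highest at 3.40, and summits 0 to 200 bp downstream lowest at 0.239; the noncoding feature spans 1 once GC content is in the fit.

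A noncoding gene also had its 5′ end in the window at 85 members (21.0%) and at 15.6% of the comparison set (odds ratio 1.44, 1.12 to 1.85, adjusted p = 0.00701, n = 5524). With GC content in the fit the odds ratio was 1.20 (adjusted p = 0.267, n = 5524), and the call was lost under 5 other alternatives. The kinds of noncoding gene differed. Of the regions with an snRNA gene in the window, 10 of 22 (45.5%) were members. With a snoRNA gene 17 of 59 (28.8%) were members, with a piRNA gene 15 of 360 (4.17%), and with a tRNA gene 1 of 41 (2.44%), beside 7.31% of all regions. The annotation counts spliced-leader genes as snRNA genes.

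The 10 members at snRNA genes were 5 pairs of neighbouring peaks, at the coding genes egg-5, H41C03.3, snr-4, cox-6A and F38E11.9. The comparison set had such regions at 11 coding genes. In the pair next to the SL2 RNA gene sls-2.4, counted at egg-5 on chromosome I from 4172017 to 4172359, the stronger peak had the highest signal of all members, 500.8. Its signal was 242.3 in replicate 1 and 257.5 in replicate 2, and the summit was 581 bp upstream of egg-5, an egg-activation gene. The weaker peak of that pair had 122.2. In the pair at H41C03.3, next to sls-2.1, the signals were 370.3 and 130.2. At snr-4, which encodes an Sm protein of spliceosomal particles, they were 131.6 and 75.6, and at cox-6A, a cytochrome c oxidase subunit gene, 130.4 and 54.8. Across the 12 genes with 2 members, the summits were 199 to 1022 bp apart, with a median of 205.5 bp. Neighbouring members can share a source: 18 members shared their replicate 1 region with another member, and 16 their replicate 2 region.

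Members were present in both replicates. All 404 overlapped a region of the replicate 1 list and 402 one of the replicate 2 list; each list holds 30000 regions and includes background. The 2 without a replicate 2 region were the weaker of 2 peaks at rps-24, a small-subunit ribosomal protein gene (pooled signal 127.8), and the peak at hpo-29 (78.7). Because members were chosen on both replicates together, their high rank in each is partly set by the rule. Median signal was 44.7 in replicate 1 (median rank 630) and 42.5 in replicate 2 (median rank 671.5). Across the 402 members in both lists, log2 signal of the replicates gave Pearson's r = 0.74 and Spearman's rho = 0.69, as a description. Signal was higher in replicate 1 at 216 members and in replicate 2 at 186.

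Membership and strength rest on the pooled signal of the same replicates, and weak members lie near rank 1497, so how many of them fall in a list of that length is largely set by the rule. Of the stronger 202 members, 199 were among the 1497 strongest regions of both replicates, and of the weaker 202 members, 68 were. In all, 267 members (66.1%) were in both top lists, 72 in that of replicate 1 only, 48 in that of replicate 2 only and 17 in neither. At 43 members the replicates differed over 2-fold. Replicate 2 was the higher at rpl-6, with 15.8 in replicate 1 and 49.5 in replicate 2, and at snrp-3, a splicing gene, with 23.2 and 54.4. Replicate 1 was the higher at rpl-14, with 41.2 in replicate 1 and 13.3 in replicate 2, and at manf-1, which encodes a secreted protein of the endoplasmic reticulum, with 40.4 and 13.6. The strongest differences of either kind were at Y24D9A.7 (11.4 and 40.0) and camt-1 (43.7 and 13.0).

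**Figure D3:**
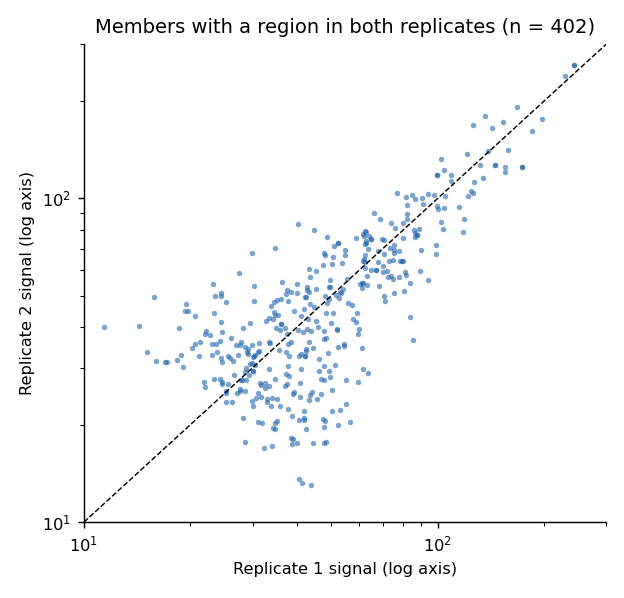
Signal of each of the 402 members with a region in both lists, replicate 1 against replicate 2 (both axes log; the dashed line marks equal signal). Points lie near the line at high signal and spread more widely at low signal, and 43 members differ over 2-fold.

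Replicate summits coincided more closely at members. They were a median of 24 bp apart at members and 130 bp apart at the 2217 comparison regions found in both lists. They fell within 50 bp of each other at 310 of 402 members (77.1%) and at 556 of the 2217 (25.1%). Summits of the comparison set are thus placed less sharply, and the region features, the 11 motifs and GC content were repeated with these 310 members and 556 comparison regions. The hexamer tests, CG counts and the pattern GCGNGTTT were not.

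The DNA under member summits was GC-rich in a narrow band. GC content within 50 bp of the summit was 45.4% ± 9.03 (SD, 404 members) and 33.5% ± 9.33 in the comparison set. In the members' own flanks, 400 to 500 bp away, it was 35.4% upstream and 37.6% downstream. With the sharply placed summits alone, the medians were 46.5% at members and 33.7% in the comparison set. When all 5524 regions were divided by GC content into 3 classes of similar size, the lowest held 14 members, the middle 61 and the highest 329, which are 0.832%, 3.13% and 17.4% of the regions in each. Within the members, signal was weakly related to GC content (r = 0.19, rho = 0.20, 404 members, as a description).

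**Figure D4:**
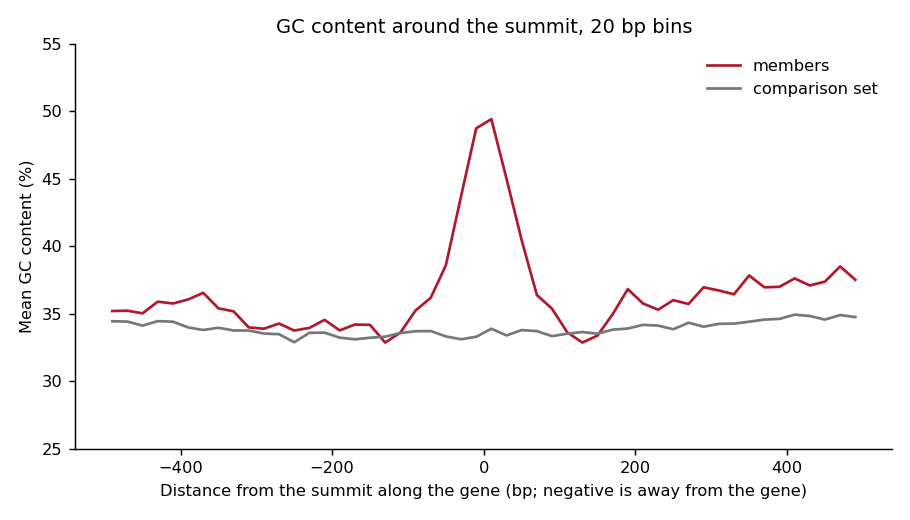
Mean GC content (%) in 20 bp bins by distance from the summit along the gene, for members (red) and the comparison set (grey). GC content of members rises within about 100 bp of the summit, where its mean within 50 bp is 45.4%, while the comparison set stays near its mean of 33.5% throughout.

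The dinucleotide CG was also more frequent at member summits. Members had 6.78 ± 3.50 CG dinucleotides (SD) within 50 bp of the summit and 3.42 in an upstream flank of equal length, and the comparison set had 3.04 ± 2.45 at the summit. Within the class of highest GC content, members had 7.72 and comparison regions 5.20. The gap was smaller in the middle class (61 members), where members had 3.08 and comparison regions 2.63. In the lowest class (14 members) the order was reversed, with 0.786 at members and 1.501 at comparison regions. The ratio of observed CG to that expected from the C and G letters was 1.32 at members and 1.06 in the comparison set.

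Of 2077 hexamers tested, each counted with its reverse complement, 411 were more frequent in members (19.8%) and 270 less frequent (13%). Of the 411, 271 held a CG, as did 5 of the 270 and 602 of all tested. With GC content as a covariate, 117 were more frequent (5.63%), 72 of them with a CG, and 75 less frequent (3.61%). The hexamer of lowest adjusted p was ACGCGC, found at 75 members (18.6%) and 2.29% of the comparison set. Its odds ratio was 9.75 (7.14 to 13.3, adjusted p = 3.14e-34), and 4.70 with GC content as a covariate (3.35 to 6.59, adjusted p = 4.32e-14, n = 5524). CGCGCA and AACGCG were each found at 66 members (16.3%), with odds ratios of 9.06 and 8.57, and of 4.62 and 4.39 with the covariate. Their letters overlap with those of ACGCGC, so these are not separate findings. The palindrome CGGCCG had the largest odds ratio, 11.1 (6.68 to 18.6), from 28 members (6.93%) and 0.664% of the comparison set. Of the hexamers less frequent in members, 4 were found at 0 members and at 41 to 52 comparison regions each, CCGGTA among them, and CTGGGA was found at 1 member and at 124 comparison regions (2.42%).

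Neither Sox sequence was more frequent at member summits before base composition was taken into account. WWCAAWG was found within 50 bp of the summit on either strand at 33 members (8.17%) and at 15.5% of the comparison set, an odds ratio of 0.484 (0.336 to 0.696, adjusted p = 2.82e-05, n = 5524). With GC content as a covariate its odds ratio was 0.694 (adjusted p = 0.0894, n = 5524), and with sharply placed summits 0.657, neither of them past the threshold. In the members' upstream flanks its share was 15.3%. The core ACAAT was found at 104 members (25.7%) and at 28.3% of the comparison set (odds ratio 0.879, 0.698 to 1.11, adjusted p = 0.285, n = 5524). The direction turned with GC content in the fit, to an odds ratio of 1.38 (1.08 to 1.78, adjusted p = 0.0255, n = 5524). Without a covariate the depletion of ACAAT passed the threshold from replicate 2 alone (odds ratio 0.773) and with the motif window widened to 100 bp on each side (0.761). Of the 33 members with WWCAAWG, 19 also held ACAAT. Members with WWCAAWG had a median signal of 75.5 and those without it 84.3.

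Of the other 9 motifs, 5 were more frequent in members without a covariate. TGCGTCT, a promoter string with no assigned factor here, was found at 34 members (8.42%) and 2.05% of the comparison set, an odds ratio of 4.39 (2.94 to 6.55, adjusted p = 5.01e-10, n = 5524). It was 1.47 with GC content as a covariate (not past the threshold) and 1.94 with sharply placed summits (past it). GAGAGA was found at 67 members (16.6%) and 7.36% (odds ratio 2.50, adjusted p = 1.04e-08, n = 5524), against 6.68% in the members' upstream flanks. With only the comparison regions in both replicates' lists, the odds ratios were lower, 2.74 for TGCGTCT and 1.90 for GAGAGA, both past the threshold. GGGCGG, the GC box of Sp1-type factors, was found at 23 members (5.69%) and 2.38%. CACGTG was found at 14 members (3.47%) and 1.76%, and CANNTG, which includes it, at 141 members (34.9%) and 30.0%. With only the comparison regions in both replicates' lists, CACGTG (odds ratio 1.86) and CANNTG (1.22) missed the threshold. CACGTG also missed it with the shorter promoter window (1.58) and in the stronger 202 members (2.01), and CANNTG with region midpoints (1.25). From replicate 2 alone the odds ratio of CANNTG was 1.18, and from replicate 1 alone 1.16. None of these 5 passed once GC content was in the fit, and GGGCGG turned to an odds ratio of 0.649.

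Motifs rich in A and T were less frequent in members. TGATAA, which binds GATA factors, was found at 13 members (3.22%) and 9.77% of the comparison set (odds ratio 0.307, 0.175 to 0.538, adjusted p = 1.38e-06, n = 5524). Once GC content was in the fit its odds ratio was 0.465 (adjusted p = 0.00864, n = 5524), and in the members' upstream flanks its share was 9.65%. TTTTTT was found at 25.7% of members and 46.9% of the comparison set, and the promoter box TATAAA at 7.92% and 15.6%. With the covariate these 2 had odds ratios of 1.02 and 1.15.

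The AP-1 site TGANTCA was found at 10 members (2.48%) and 3.09% of the comparison set (adjusted p = 0.478, n = 5524).

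The 8-letter pattern GCGNGTTT was chosen after the printed sequences were seen and is given without a test. On either strand it lay within 50 bp of the summit at 56 members (13.9%, exact 95% interval 10.6% to 17.6%) and at 72 comparison regions (1.41%, 1.10% to 1.77%). Apart from the 4 members first printed, it was found at 53 of 400 members (13.3%). In the members' upstream flanks it was found 6 times (1.49%). Of the 128 regions with the pattern, 43.8% were members, beside 7.31% of all regions and 17.4% of those in the class of highest GC content. The pattern was not fitted with GC content as a covariate. With C in place of N it holds GCGCGT and CGCGTT, the reverse complements of ACGCGC and AACGCG, so it partly overlaps those hexamers. The centre of the nearest match was a median of 19 bp from the summit, a distance limited by the search within 50 bp. The pattern read along the gene at 26 members and against it at 32, counting members with both under each. Members with the pattern had a median signal of 104.6, and members without it 79.0. Among autosomal optimal peaks at 2 or more coding promoters, 35 of 302 had it (11.6%, 8.21% to 15.7%), and among those at no coding promoter 20 of 476 (4.20%, 2.59% to 6.41%). Genes with the pattern included rpl-3, C47E8.4, rpl-35, cdc-48.1, cox-5A, T07F10.3 and eif-3.C, which were 7 of the 25 strongest members. Of these, rpl-3, C47E8.4 and rpl-35 were among the strong members from which the pattern was chosen, so their matches were set by that choice. The median signal of 104.6 also includes them.

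The 25 members of highest signal ran from 224.6 to 500.8, and those with a known product are described by its role, with no count or test of a theme. In protein synthesis, rpl-3 had 229.3 in replicate 1 and 239.0 in replicate 2, and rpl-35 had 184.8 and 161.1. The initiation factor subunit genes eif-3.B and eif-3.C had 139.1 and 139.8, and 104.3 and 122.6. In protein folding and turnover, cdc-48.1, the p97 segregase, had 152.5 and 171.8, and bag-1, a cochaperone of Hsp70, had 125.9 and 103.9. The cyclophilin gene cyn-10 had 108.8 and 113.4.

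In respiration, cox-5A, a subunit of cytochrome c oxidase, had 135.8 and 180.3, and sco-1, whose product delivers copper to that enzyme, had 108.8 and 118.3. In DNA and RNA metabolism, pcn-1, the replication clamp PCNA, had 145.4 and 127.3. The histone gene his-37 had 155.3 and 120.9, thoc-5, of the THO mRNA export complex, 154.8 and 125.5, and ints-4 134.5 and 115.7. At tos-1 the values were 173.6 and 125.2 and at lrpr-1 158.2 and 140.8. Other members among the 25 were at W04C9.4, T07F10.3, C49A9.10, Y73B6BL.29, eelo-2, F10C5.3, C47E8.4, H41C03.3 and egg-5. Every one of the 25 had a signal over 100 in both replicates. The 25 were chosen on the pooled signal of the same replicates, so high values in both are largely set by that choice.

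Gene groups were counted among genes with a region that met the rule, of which 8.5% had a member. These counts are descriptions with no test, and 88 of the 392 genes fell in one of 27 lists. A peak was counted at its coding promoter even where the summit was inside another gene. Summits at swsn-3 and mdt-22 were in introns of cox-6B and clpp-1, and those at mrps-35 and vha-13 in UTRs of sws-1 and cept-2. Peaks at snr-4 and cox-6A also had an snRNA gene in the window, and those at rpl-6 and cdc-48.1 a snoRNA gene. Of the cytosolic ribosomal protein genes 9 of 25 had a member (36%, exact 95% interval 18.0% to 57.5%), and the members' median signal was 113.9. They ran from rpl-3 down to rpl-6 (58.6). Of translation factor genes 4 of 8 had one (50%), with signals from 51.7 to 280.2, and of the aminoacyl-tRNA synthetase genes, which charge tRNAs, 0 of 10 (0%, up to 30.8%). Of mitochondrial ribosomal protein genes 5 of 23 had one (21.7%), led by mrps-35 (157.1), mrpl-28 (142.4) and mrpl-55 (116.1). Respiratory chain genes had 4 of 10 (40%), with cox-6A (130.4) and cyc-1, cytochrome c1 (85.2), after cox-5A. Genes for mitochondrial import had 3 of 7 (42.9%), with tomm-20, an outer membrane receptor, at 139.0, timm-17B.1 at 71.6 and tin-9.1 at 63.7.

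Among groups acting in the nucleus and in protein turnover, chromatin regulators had 8 of 25 (32%, 14.9% to 53.5%), among them swsn-3, a SWI/SNF subunit (139.0), set-4, a histone H4 methyltransferase (136.5), and mys-1, a MYST acetyltransferase (108.8). Ubiquitin system genes had 8 of 26 (30.8%, 14.3% to 51.8%), among them ufd-3 (186.6), usp-4 (128.1) and ubxn-2 (112.6). Replication and cell cycle genes had 6 of 23 (26.1%, 10.2% to 48.4%), with mcm-10 at 185.4 after cdc-48.1 and pcn-1. Lists were drawn by gene symbol, which placed cdc-48.1, described above under protein folding and turnover, in this group. The 6 of 23 counts that gene and was not recounted without it, and its lower limit of 10.2% is close to the background. Nuclear pore and transport genes had 4 of 10 (40%, 12.2% to 73.8%), with the nucleoporin genes npp-8 at 112.9 and npp-18 at 78.6 and the importin gene ima-2 at 76.4. Membrane traffic genes had 5 of 21 (23.8%), led by vps-4 (137.0), sec-24.1 (126.6) and vps-60 (116.2). Proteasome subunits had 2 of 7 (28.6%, 3.67% to 71.0%), rpn-11 (123.5) and pbs-4 (52.7). The vacuolar ATPase had 2 of 8 (25%, 3.19% to 65.1%), vha-9 (55.4) and vha-13 (53.7), both near the lowest signal of the set. Chaperone genes had 2 of 20 (10%, 1.23% to 31.7%), near the background, which were hsp-1, the constitutive Hsp70 (199.6), and dnj-9 (198.4). Splicing genes had 2 of 13 (15.4%, 1.92% to 45.4%), snr-4 and snrp-3, and transcription machinery 2 of 18 (11.1%, 1.38% to 34.7%), mdt-22 (80.5) and taf-12 (66.7). Both intervals span the background, as do those of the proteasome, the vacuolar ATPase and histones (1 of 3). So do those of membrane traffic (8.22% to 47.2%) and of mitochondrial ribosomal proteins (7.46% to 43.7%).

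Groups with restricted or environmental roles are given in the same way, and apart from chemoreceptors their intervals span the background. Nuclear hormone receptor genes had 5 of 100 (5%, 1.64% to 11.3%), led by nhr-196 (84.0), nhr-9 (68.0) and nhr-158 (66.9). Homeobox and bHLH factor genes had 3 of 22 (13.6%), which were hlh-11 (85.9), hlh-30, the TFEB homolog (60.0), and ceh-23 (55.6). Chemoreceptor genes had 9 of 344 (2.62%, 1.20% to 4.91%), with signals from 51.4 to 94.6. Neuropeptide and insulin genes had 0 of 38 (up to 9.25%) and C-type lectin genes 0 of 21 (up to 16.1%). Cuticle collagens had 1 of 26, col-63 (53.3), detoxification enzymes 1 of 47, gst-27 (72.5), F-box and BTB proteins 1 of 59, fbxa-83 (57.7), and ion channels and transmitter receptors 1 of 31, lgc-30 (53.4). No autosomal Sox gene had a region that met the rule.

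Several of these shares changed when the regions of 1 replicate alone were used. With the strongest regions of replicate 2 alone in place of the optimal list, the share was 20.7% for chromatin regulators, 15.8% for chaperones, 12.5% for proteasome subunits, 5.88% for transcription machinery and 4.76% for homeobox and bHLH factors. It was then 0% for the vacuolar ATPase, cuticle collagens, ion channels and transmitter receptors, and F-box and BTB proteins. With those of replicate 1 alone it was 8.79% for nuclear hormone receptors, 14.3% for the vacuolar ATPase and 0% for F-box and BTB proteins. Cytosolic ribosomal proteins had 39.1% from replicate 2 alone and 34.6% from replicate 1 alone.

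**Figure D5:**
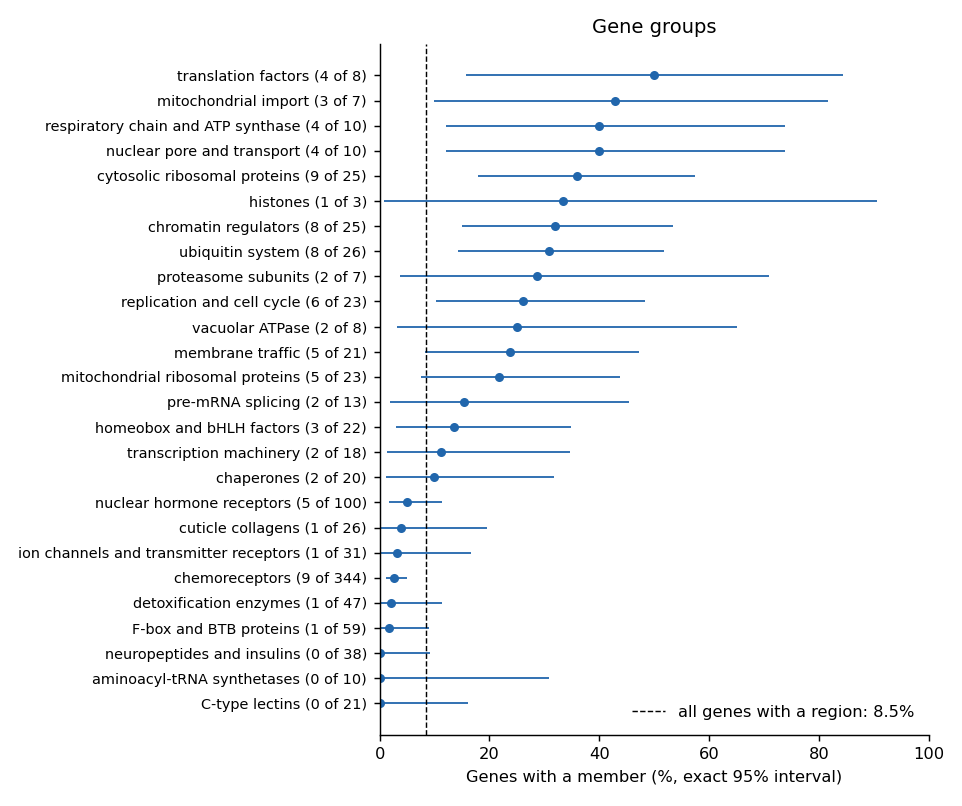
Share of genes with a member (%) among those with a region at the promoter, by gene group, with exact 95% intervals and both counts in brackets; the dashed line is the share over all such genes (8.5%). Points from translation factors (50%) to mitochondrial ribosomal proteins (21.7%) lie right of the line, some with intervals that cross it, and chemoreceptors (2.62%) lie left of it with an interval that ends at 4.91%.

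The set ends where the optimal list ends. The weakest members were at mrpl-15 (51.6), C01G12.7 (51.5), Y17D7B.10 (51.5) and sup-26 (51.4), and at a chemoreceptor gene. The strongest comparison regions were at lin-36 (51.3), zyg-11 (51.1), mes-2 (51.0), ttc-37 (50.9) and nhr-105 (50.9). Of these, zyg-11 had 9.21 in replicate 1 and 42.2 in replicate 2. At the edges of the position rule, 7 members had their summit in the last 50 bp before the upstream limit, with a median signal of 60.3, and 3 autosomal optimal peaks lay in the 50 bp beyond it, with 62.2. The region at unc-119, the gene mutated in the strain, was in the comparison set (16.4). Members were spread over the autosomes, with 79 on I, 81 on II, 78 on III, 79 on IV and 87 on V. They were 8.03%, 10.3%, 8.12%, 6.54% and 5.48% of the regions that met the rule there. Of all members 60.4% lay in the central 50% of their chromosome, and of the comparison set 55.2%. By chromosome, the members' share was the higher on I (62.0% and 57.1%), III (65.4% and 51.9%) and V (67.8% and 55.2%). It was not on II (54.3% and 54.8%) or IV (51.9% and 56.3%).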

How the data were processed

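ChIP-seq region lists of 2 biological replicates (numbers from the labels) were used, on ce11. Per the file notes, the authors deposited 1 list for each replicate and 1 for both pooled, each with 30000 regions including background, and an optimal list from the irreproducible discovery rate (IDR). The caller, its version and the IDR cutoff were not given in the sources used here. Read depth is unknown. Signal per region, as deposited by the authors, ranked and described regions. The deposited −log10 q-value was read only to check the columns, and the deposited summit offset placed each summit, 1-based.

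Genes came from Ensembl release 115 (WBcel235), and symbols and sequence from RefSeq; 46881 of 46926 genes matched a symbol by WormBase identifier. A replicate's value is that of the overlapping region of highest signal. Membership was regressed on 1 feature at a time (logistic regression, two-sided likelihood ratio test, Wald 95% interval, Benjamini-Hochberg, threshold 0.05) over 5524 regions. Hexamers were tested when found in at least 20 regions. Shares have exact (Clopper-Pearson) 95% intervals. The fits recovered planted odds ratios when tested on simulated data.

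Members, lists and tests were chosen with earlier results of these data known. Genes named are those at the 25 strongest members, up to 3 of each list, the 5 weakest members and 5 strongest comparison regions, the 5 largest replicate differences each way, members missing from a replicate, and unc-119. Genes outside this rule were named after their values were seen. Single chemoreceptor genes, 1 of the 25 strongest members and 1 sequence that the rule names are not reported here. Alternatives covered the window, 5′ ends, region midpoints, each replicate alone, the stronger 202 members, comparison sets, noncoding 5′ ends, GC content and motif windows. Those added after seeing the data were CG content, the pattern GCGNGTTT, nearest noncoding 5′ ends and sharply placed summits. Software was statsmodels 0.14.6 with scipy 1.17.1, pandas 2.3.3, numpy 2.4.6 and matplotlib 3.10.9 under Python 3.11.15.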

Additional observations from a re-analysis of the deposited data

How the results depend on the processing

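Of the 9 position and surrounding features, summits outside coding genes, inside another gene, downstream, within 200 bp upstream and beyond 500 bp upstream kept their direction and call in every alternative run. With the window cut to 500 bp upstream and 100 bp downstream, the interval between 200 and 500 bp upstream no longer differed (odds ratio 0.996, 0.810 to 1.22). There the noncoding 5′ end (1.16) and the same-strand neighbour (1.17) missed the threshold, and 5 features were called. The noncoding 5′ end also missed it from replicate 2 alone (1.25), in the stronger 202 members (1.25), with GC content as a covariate (1.20), without regions whose nearest 5′ end was noncoding (1.18) and with sharply placed summits (1.46). Each replicate left out gave noncoding odds ratios from 1.25 to 1.5.

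With GC content as a covariate 2 of 11 motifs were called in place of 9, and 192 hexamers in place of 681, of which 117 were higher and 75 lower. The odds ratio crossed 1 for ACAAT (1.38), TATAAA (1.15), GGGCGG (0.649), TTTTTT (1.02) and TGANTCA (1.07). Among these only ACAAT passed the threshold, and the intervals of the others spanned 1. ACAAT was called as less frequent from replicate 2 alone (0.773) and with a 100 bp motif window (0.761). TGANTCA, not called in the main fit, also crossed 1 with a 100 bp motif window (1.05) and with replicate 2 left out. The 2 fits that left out a replicate gave 0.992 and 1.27 for it. With CG dinucleotides as a covariate too, 84 hexamers were called higher and 35 lower. No paired analysis was possible because there was 1 group. The cause of these changes was not tested. Weak members rest most on where the optimal list ends, and depth is unknown.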
